A study of Caenorhabditis elegans with 3 samples.

Results

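Among the 30000 pooled peaks of BED-3 chromatin immunoprecipitation from Caenorhabditis elegans embryos, 1073 strong peaks lay inside introns of protein-coding genes, away from promoters. They were selected on pooled signal, as part of the 5000 highest of which 4981 were nuclear, and on location. A peak was kept when its summit fell in an intron of a protein-coding gene and in no annotated exon. It also had to lie outside the window from 1000 bp upstream to 200 bp downstream of every protein-coding 5′ end, and more than 500 bp from any tRNA, snoRNA, snRNA, rRNA, miRNA or other non-coding RNA gene. Since pooled signal and location chose these peaks, their signal, rank and intronic position are descriptions and were not tested. Their pooled signal, a value per peak from the authors' caller, ran from 57.1 to 321 with a median of 66.0, and 53 exceeded 100.

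All samples came from strain OP651, which carries the mutant allele unc-119(tm4063) and the transgene wgIs651. That transgene holds bed-3::TY1::EGFP::3xFLAG together with a rescuing unc-119(+) copy, so the line stably expresses BED-3 with C-terminal tags, and its genotype lists no change at the endogenous bed-3 gene. Mixed-stage embryos of pooled males and females, aged 4 hours and obtained by egg bleaching, gave 3 biological replicates, numbered 1, 3 and 4, of 1 group. Chromatin was sonicated, with a size range of 200 to 800 bp, and precipitated with an antibody against GFP. All 3 share 1 line, no untagged precipitation was analysed here, and the presence of a peak does not by itself show binding by BED-3. Precipitated DNA carries no marker RNA, so the labelled whole embryos could not be checked against marker genes.

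BED-3 is a zinc finger protein of the BED class, known in C. elegans for its roles in vulval cell divisions, in epidermal cells and in moulting. Introns of worm genes can hold enhancers, alternative promoters and repeats, and long first introns of developmental genes are a known place for regulatory elements. Intronic peaks in immunoprecipitated chromatin can also fall in repetitive or otherwise accessible sequence, which peak positions alone do not separate.

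Sequences at the summits are shown for strong intronic peaks among those that ranked best across the replicates, since these had high signal in all 3. The W05H12.1 peak, with a worst rank of 745, is not printed. Each is the 101 bp centred on the summit, from the RefSeq sequence of WBcel235 (ce11), plus strand, 5′ to 3′. Capitals mark matches, on either strand, to 1 of 10 motifs searched, or to GTTCNANNC, a form of the B box found inside tRNA genes. The first 8 hold no 36-base word that recurs elsewhere in the nuclear genome.
srt-52, chrV:53447-53547: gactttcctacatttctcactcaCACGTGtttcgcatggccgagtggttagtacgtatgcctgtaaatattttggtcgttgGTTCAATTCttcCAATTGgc
pqn-41, chrIII:1921409-1921509: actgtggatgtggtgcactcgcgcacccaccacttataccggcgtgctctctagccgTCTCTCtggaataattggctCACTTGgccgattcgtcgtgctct
Y39A1C.1, chrIII:10856973-10857073: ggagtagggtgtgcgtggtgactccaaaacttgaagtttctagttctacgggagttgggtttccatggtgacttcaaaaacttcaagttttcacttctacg
Y57G11C.22, chrIV:14838317-14838417: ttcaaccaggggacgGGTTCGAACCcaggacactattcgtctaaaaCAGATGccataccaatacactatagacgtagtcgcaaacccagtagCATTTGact
mdt-26, chrII:5661977-5662077: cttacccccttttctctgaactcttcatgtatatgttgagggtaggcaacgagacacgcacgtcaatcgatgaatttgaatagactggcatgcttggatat
hmt-1, chrIII:11093602-11093702: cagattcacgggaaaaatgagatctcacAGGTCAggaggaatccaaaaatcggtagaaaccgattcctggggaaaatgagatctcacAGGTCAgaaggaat
tsr-1, chrII:2461441-2461541: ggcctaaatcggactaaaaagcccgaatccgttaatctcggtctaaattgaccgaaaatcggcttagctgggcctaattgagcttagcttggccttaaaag
ajm-1, chrX:9102352-9102452: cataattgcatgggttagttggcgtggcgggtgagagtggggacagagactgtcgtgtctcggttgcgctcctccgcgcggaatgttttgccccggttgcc
The summit in srt-52 held CACGTG and CAATTG, both cases of CANNTG, and GTTCAATTC, a case of the B box-like word. The summit in Y57G11C.22 held a B box-like match as well. In hmt-1 the word AGGTCA stood at 2 places, and around that summit the sequence matched itself at 54.96% of bases when shifted by 59 bp. The next pair is shown because words in these windows recur in the genome.
usp-39, chrII:2570624-2570724: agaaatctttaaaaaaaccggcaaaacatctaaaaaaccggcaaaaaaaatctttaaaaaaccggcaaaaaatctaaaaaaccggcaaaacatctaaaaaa
F53A3.1, chrIII:1940060-1940160: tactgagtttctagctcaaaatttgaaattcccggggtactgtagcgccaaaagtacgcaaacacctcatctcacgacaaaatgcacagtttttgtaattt
A 36-base word at the usp-39 summit occurred up to 3 times in the genome, and the surrounding 301 bp matched themselves at 64.3% of bases when shifted by 24 bp. At the F53A3.1 summit a word occurred up to 6 times.

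The strongest intronic peaks lay in genes of several kinds, among them a chemoreceptor gene, a prion-like protein gene, a Mediator subunit and a Wnt-secretion factor. The highest was in the second intron of srt-52, a chemoreceptor of the serpentine class T family, with signals of 61.1, 71.3 and 188 in replicates 1, 3 and 4 and ranks of 231, 137 and 114. All 3 replicates placed that summit at rank 231 or better, with replicate 4 giving the largest signal. Intron numbers here and below are the lowest over the coding transcripts of a host. A first intron can therefore be that of a transcript that starts inside the gene. The peak in intron 8 of usp-39, the gene for a ubiquitin-peptidase-like splicing factor, had signals of 36.4, 69.0 and 155 in replicates 1, 3 and 4, at ranks 628, 144 and 150. Replicate 1 placed it lower than the other 2 replicates did. The peak in pqn-41, a glutamine-rich protein that acts in death of the male linker cell, had signals of 44.1, 51.7 and 111 in replicates 1, 3 and 4, at ranks 410, 255 and 270. It lay in the first intron of a transcript with 9 introns, well inside the gene. Its ranks were close to each other in all 3 replicates.

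Other high peaks differed more between the replicates. In mdt-26, a Mediator subunit gene, 2 peaks lay in 1 intron of 386 bp. The higher one, with a pooled signal of 205, had ranks of 110 and 273 in replicates 3 and 4 and no summit within 100 bp in replicate 1, where the lower one, printed above and with a pooled signal of 140, was found. The lower one had ranks of 966, 325 and 391 in replicates 1, 3 and 4. The peak in mom-1, the Porcupine protein needed for Wnt secretion, had a pooled signal of 177 and ranks of 409 and 238 in replicates 3 and 4. No summit lay near it in replicate 1, and the same held for the peak in let-526, the ARID subunit of a SWI/SNF remodelling complex, at ranks 495 and 532 in replicates 3 and 4. The peak in ast-1, an ETS transcription factor of dopaminergic neurons and axon guidance, had ranks of 720, 9967 and 310 in replicates 1, 3 and 4. Replicate 3 thus held it far down its list. A 36-base word at the ast-1 summit occurred up to 1151 times in the genome. The 301 bp around it matched themselves at 63.2% of bases when shifted by 10 bp. The higher peak in ajm-1, an apical junction protein of epithelia, had signals of 28.7, 25.4 and 75.4 in replicates 1, 3 and 4, at ranks 1416, 2394 and 536. It lay in the first intron of a transcript with 18 introns, well inside the gene.

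Over the 25 highest intronic peaks, which lay in 22 host genes, replicate 4 placed all 25 at rank 1052 or better. Replicate 1 had 15 of them among its 5000 highest peaks and no summit within 100 bp of 7. Replicate 3 had 16 among its 5000 highest and no summit near 6. The pooled order of the strongest intronic peaks thus followed replicate 4 more closely than the other 2, as the plot of their ranks by replicate shows. The remaining hosts among these 25 were ugt-50, a UDP-glucuronosyltransferase with 2 peaks, mppa-1, a subunit of the mitochondrial processing peptidase, hmt-1, a transporter for heavy metal tolerance, lir-1, hmr-1, spop-1, natc-2, oac-1, W05H12.1, Y57G11C.22, Y39A1C.1, F53A3.1, Y45G5AM.6 and Y53G8AM.8.

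**Figure D1:**
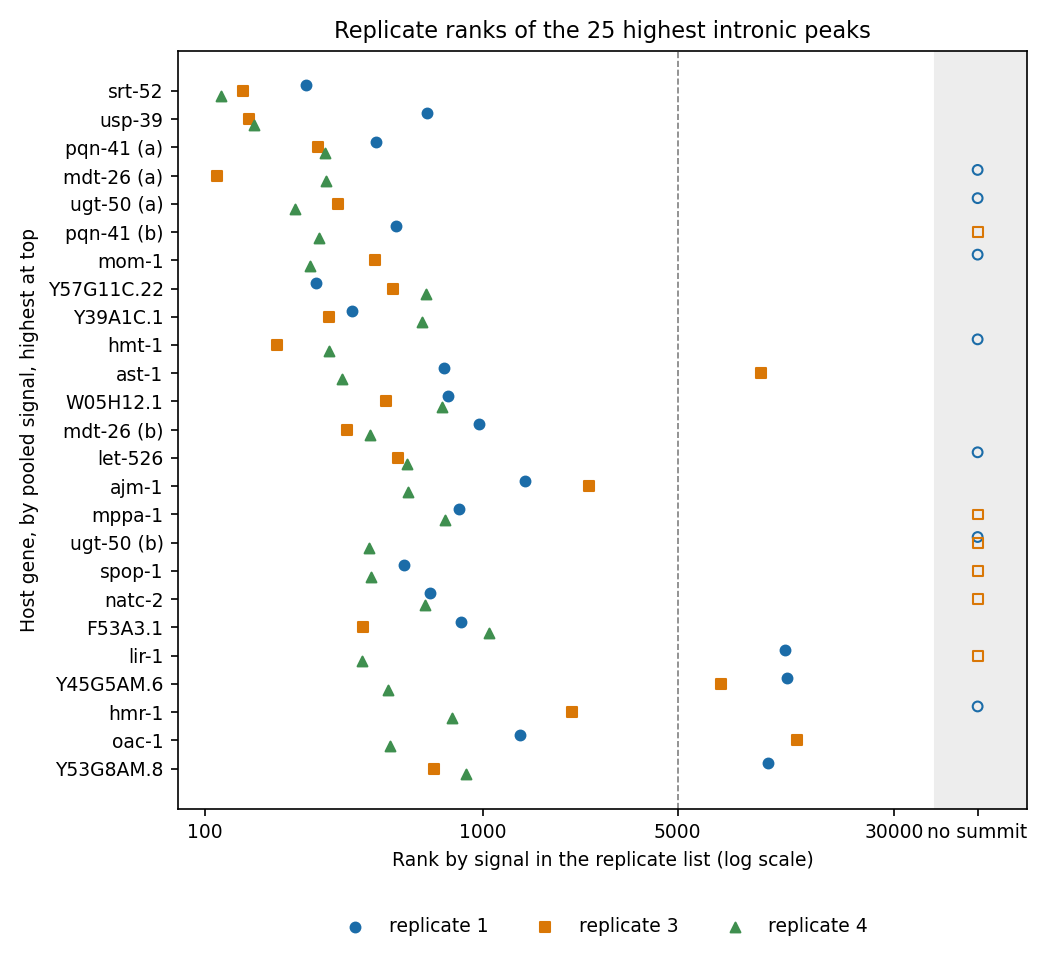
Ranks of the 25 strong intronic peaks of highest pooled signal, 1 row per peak named by its host gene, with rank by signal in the list of replicates 1, 3 and 4 on a log axis; letters tell peaks of 1 host apart, the dashed line is rank 5000, and open symbols in the shaded band mark no summit within 100 bp. Replicate 4 held all 25 at rank 1052 or better, whereas replicate 1 lacked 7 and replicate 3 lacked 6.

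Few strong intronic peaks recurred in every replicate. Counting a peak as found when a summit lay within 100 bp among a replicate's 5000 highest, 18 of 1073 were found in every replicate, 143 in 2, 570 in 1 and 342 in none. This was 1.68% of strong intronic peaks (95% exact Clopper-Pearson interval 0.997 to 2.64%), beside 10.6% of all 4981 strong nuclear peaks. The same count gave 2% of 400 strong exon peaks (0.867 to 3.90%), 5.25% of 762 strong intergenic peaks and 13.9% of 2003 strong coding promoter peaks, so the exon share was as low as the intronic one within its interval. The intronic count depends on the distance, with 8 at 50 bp and 42 at 200 bp, and on list depth, with 7 in the 1000 highest of each replicate. The 10.6% holds for 100 bp and the 5000 highest only. Shares over all strong nuclear peaks at these other distances and that depth are not given here, so these counts do not compare the classes. Because each replicate gave reads to the pooled list, these shares describe the lists and were not tested. The intervals cover counting error only.

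Intronic peaks sat lower in the pooled list than promoter peaks, and the order of the classes was the same among the highest peaks. At pooled ranks 1 to 1000, 14 of 69 intronic peaks were found in every replicate (20.3%, 11.6 to 31.7%), against 31 of 85 intergenic peaks (36.5%, 26.3 to 47.6%) and 265 of 514 coding promoter peaks (51.6%, 47.1 to 56.0%). Median pooled signals in that range were 108, 114 and 133 for the intronic, intergenic and promoter peaks in that order, so the classes were not matched on signal. Past rank 2500, 0 of 679 intronic peaks were found in every replicate, which allows a share of up to 0.542%. The authors' optimal list held 21 strong intronic peaks (1.96%), beside 11.4% of all strong nuclear peaks. In every class all such peaks were at pooled ranks of 1000 or better. In that range the optimal list held 30.4% of intronic and 58.1% of all nuclear peaks. With the whole list of every replicate 186 of the 1073 were found, beside 27.1% of all strong nuclear peaks.

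**Figure D2:**
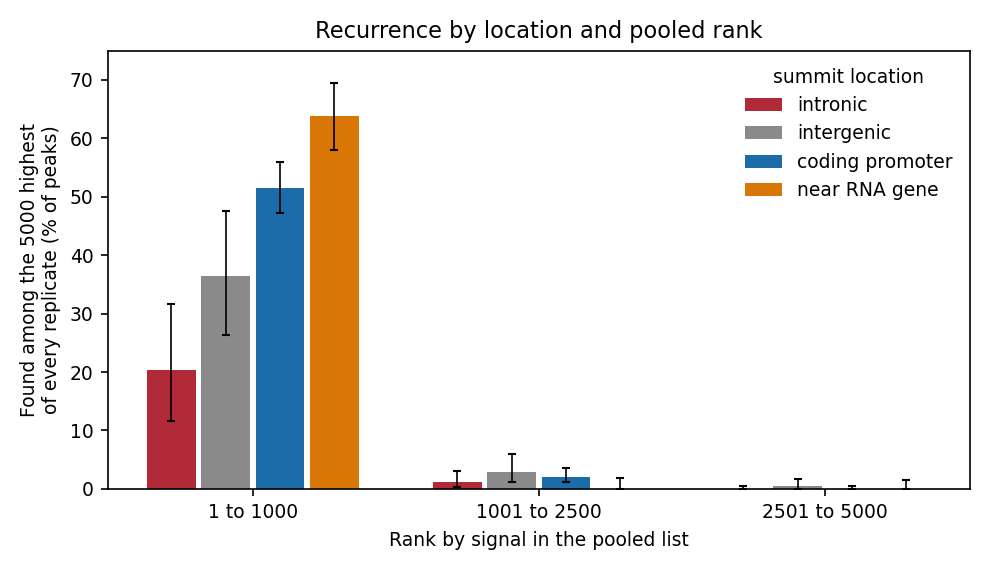
Share of strong peaks found among the 5000 highest of every replicate, in percent, by pooled rank and summit location; bars are shares and whiskers are 95% exact Clopper-Pearson intervals. At ranks 1 to 1000 the share was 20.3% for intronic, 36.5% for intergenic, 51.6% for coding promoter and 63.9% for peaks near RNA genes, and in every class shown it was 2.90% or less at lower ranks.

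The replicates did not contribute equally. Among their 5000 highest peaks, replicates 1, 3 and 4 held 21.9, 19.9 and 43.1% of the 1073 strong intronic peaks. Of the strong coding promoter peaks they held 38.1, 34.05 and 56.2%, in that order. The lead of replicate 4 was thus not limited to intronic peaks, and each replicate held a lower share of intronic than of promoter peaks. For 7582 intronic peaks of lower pooled rank the shares were 4.93, 4.83 and 5.67%, and 0.847, 0.888 and 0.887% of the bases that satisfy the location rule lay within 100 bp of such a summit. The reads of each replicate are part of the pooled signal that chose the strong set, so a higher share than in the lower ranks was fixed by that choice. Of the 570 peaks found in a single replicate, 328 were found in replicate 4, 130 in replicate 1 and the rest in replicate 3. Across strong intronic peaks matched in both lists, the signals of replicates 1 and 3 had a Spearman rho of 0.0986 (n = 249), those of replicates 1 and 4 a rho of 0.00566 (n = 434) and those of replicates 3 and 4 a rho of -0.00322 (n = 446). For the same pairs in that order, the Pearson r of log2 signal was 0.207, 0.108 and 0.174. The peaks were chosen on pooled signal, a choice that can itself lower such values, and are not independent samples. These values are therefore a description and do not measure how well the replicates match.

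Applied to each replicate's own 5000 highest peaks, the location rule kept 1052, 1103 and 1115 intronic peaks in replicates 1, 3 and 4 (1090 ± 33.5, SD, n = 3). Intronic peaks of each own list were found in both other lists in 17 (1.62%), 16 (1.45%) and 17 (1.52%) cases. For promoter peaks of the same lists the shares were 13.9, 13.5 and 13.4%, and for intergenic peaks 4.77, 4.39 and 4.32%. Intronic peaks were thus the least shared of these 3 classes in each replicate's own list. With 3 replicates of 1 group, a two-sided exact sign test cannot give a p below 0.25, so no p was computed.

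The 18 recurrent intronic peaks lay in 18 annotated host genes and included 2 peaks in ajm-1. Besides srt-52, pqn-41, usp-39, mdt-26 and ajm-1, the hosts were Y39A1C.1, Y57G11C.22, W05H12.1, F53A3.1, hmt-1, tsr-1, F09C8.2, spe-19, a gene of sperm activation, zfp-1, the AF10-like chromatin protein, T09B4.5, srg-21, a chemoreceptor of the class G family, and cox-6B and tmem-132, which overlap at 1 peak. Their median pooled rank was 637.5, and 9 were in the optimal list. The second ajm-1 peak, with a pooled signal of 76.7, had ranks of 4693, 2104 and 3342 in replicates 1, 3 and 4, and the zfp-1 peak, with a pooled signal of 86.6, had ranks of 4378, 357 and 2552. Both stayed inside the limit of 5000 in all 3 replicates while their ranks differed widely. Of the 18, 7 were in a first intron, 3 were on chromosome X and 16 held no repeated 36-base word. Their median GC content was 44.1%. The Y39A1C.1 peak, with ranks of 337, 278 and 604 in replicates 1, 3 and 4, lay 247 bp from the 5′ end of its host, just outside the promoter window. The zfp-1 peak lay 416 bp downstream of the 5′ end of F54F2.6. The higher ajm-1 peak lay 1360 bp upstream of an ajm-1 5′ end. Of peaks described below, the highest in hmr-1 and that in lin-42 lay 1295 and 1152 bp upstream of a host 5′ end. A promoter window of 2000 bp upstream to 500 bp downstream kept 13 of the 18.

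The share of genes that were hosts rose with the amount of intron in the gene. The 1073 peaks fell in 846 of 17144 protein-coding genes that have intron meeting the location rule (4.93%), with 1 peak in 682 hosts, 2 in 114 and 3 or more in 50. Of genes with under 1 kb of such intron 0.851% were hosts (91 of 10693), and the share was 7.73% at 1 to 5 kb, 26.7% at 5 to 10 kb and 43.8% at 10 kb or more (131 of 299). Hosts had a median of 3.62 kb, against 0.666 kb over all genes with such intron. Counts per gene are therefore given below with the intron length and as a density. The overall density was 0.0428 peaks per kb, and hosts described for having many peaks lie above it by that choice, so the densities only order these hosts among themselves.

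**Figure D3:**
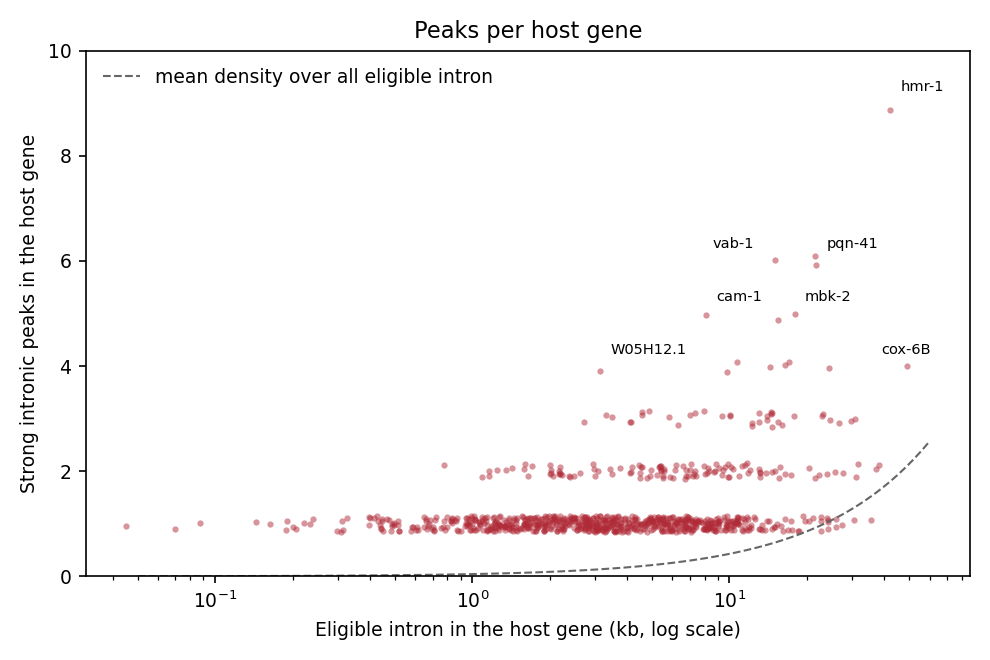
Number of strong intronic peaks per host gene against the intron of that gene that meets the location rule, in kb on a log axis; each point is 1 of 846 hosts, moved slightly up or down so that points do not cover each other, and the dashed line is the mean density of 0.0428 peaks per kb. Genes with no peak are not drawn, hmr-1 had 9 peaks and W05H12.1 had 4 in 3.14 kb.

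Of the hosts with the most peaks, hmr-1 came first. Over all 1073 strong intronic peaks, 161 were found in 2 or more replicates, and counts per host here and below stand beside that share. The classical cadherin gene hmr-1 (chromosome I, 11075755 to 11134667, minus strand) held 9 peaks in 41.99 kb, or 0.214 per kb, and 4 of the 9 were found in 2 or more replicates. Its highest peak, with a pooled signal of 119, had ranks of 2078 and 775 in replicates 3 and 4 and no summit in replicate 1. Another hmr-1 peak, with a pooled signal of 76.1, had ranks of 1793 and 1928 in replicates 1 and 3 and none in replicate 4. These 2 peaks were thus found in different pairs of replicates. Of the 9 hmr-1 peaks, 1 was found in no replicate's 5000 highest. At the hmr-1 summit with a pooled signal of 94.5, every 36-base word was repeated in the genome. The Eph receptor gene vab-1 held 6 peaks in 15.1 kb (0.399 per kb), 2 of them in 2 or more replicates. Its highest, with a pooled signal of 89.8, had ranks of 1138, 23450 and 2296 in replicates 1, 3 and 4. The polarity kinase gene par-1 held 5 peaks in 15.5 kb, 1 of them in 2 or more replicates. The ROR receptor gene cam-1 had a higher density, 5 peaks in 8.11 kb or 0.617 per kb, but 4 of its 5 peaks were found in no replicate's 5000 highest and the fifth only in replicate 3, at rank 1979.

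Further hosts with several peaks were pqn-41 with 6 in 21.7 kb, 2 of them in 2 or more replicates, and the formin gene frl-1 with 6 in 21.5 kb, also 2 in 2 or more. The kinase gene mbk-2, which acts at the transition from oocyte to embryo, held 5 in 17.9 kb, and none was found in 2 replicates. In pqn-41 3 of the 6 peaks shared 1 intron of 7776 bp, and the second highest, with a pooled signal of 178, had ranks of 485 and 257 in replicates 1 and 4 and none in replicate 3. The densest host with 4 peaks was W05H12.1, at 1.27 per kb, with 1 peak in every replicate and another in 2. Those with 4 peaks also included mig-10, the lamellipodin homologue, zfh-2, a zinc finger homeobox factor, ccct-1, Y111B2A.12, Y48C3A.5 and cox-6B. The count for cox-6B came from 48.9 kb of annotated intron, a density of 0.0819 per kb, and each of its 4 peaks also lay in, or overlapped, the intron of a second gene.

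Hosts with 3 peaks were hmt-1, lir-1, gly-4, sel-8, spe-19, cogc-1, ccch-1, Y54G2A.26, daf-5, nhr-65, zfp-1, daf-2, kin-1, dys-1, rpom-1, crh-1, egl-8, flcn-1, lit-1, B0353.1, Y43F8C.6, ptp-3, gsa-1, mig-1, vab-10, hlh-30, Y52B11A.4, F19C7.8, ptp-1, F53A10.2, lev-11, sms-1, tmem-120, Y37E3.17 and zipt-15. The 50 genes with 3 or more peaks held 179 of the 1073 and had a median of 13.98 kb of eligible intron. Density among these 3-peak hosts ran from 0.0979 per kb in daf-2, the insulin receptor gene with 30.7 kb, to 1.11 per kb in spe-19 with 2.71 kb.

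Regulators of the epidermis, of moulting and of the vulva, where BED-3 is known to act, held 2, 4 and 5 of the peaks, at 37.4, 61.9 and 36.5 per Mb, around the density over all genes of 42.8 per Mb. Among 17 regulators of epidermis and seam cells, 2 were hosts. These were nhr-23, a nuclear receptor of moulting, whose peak with a pooled signal of 75.2 had ranks of 2071 and 2410 in replicates 1 and 4 and none in replicate 3, and egl-18, a GATA factor of seam cells, whose peak with a pooled signal of 62.8 had a summit only in replicate 3, at rank 8466. Of 24 moulting genes 4 were hosts, lin-42, nhr-23, nas-36 and myrf-1. The peak in lin-42, the Period homologue, had a pooled signal of 104 with ranks of 271 and 1516 in replicates 3 and 4 and no summit in replicate 1. No cuticle collagen gene was a host among 110 with eligible intron, but these genes together had 0.0407 Mb of it, too little to hold more than a few peaks at that density. Of 29 vulval genes 5 were hosts (cog-1, sur-2, nhr-113, mek-2 and mpk-1). Around the nhr-113 summit the sequence matched itself at 69.0% of bases when shifted by 43 bp. Of 19 genes of epidermal junctions and matrix 3 were hosts, ajm-1, hmr-1 and the spectraplakin gene vab-10, with 14 peaks or 125 per Mb, and 9 of the 14 were in hmr-1.

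A list of 28 Wnt pathway genes had 14 peaks in 5 hosts, or 177 per Mb. The list does not hold mom-1, whose peak is described above and was higher than any of these. The Frizzled receptor genes lin-17 and mig-1 held 2 and 3 peaks, cam-1 held 5, lit-1, the Nemo-like kinase gene, held 3, and pop-1, the TCF gene, held 1. The highest in the list was in the first intron of a lin-17 transcript, with a pooled signal of 111 and ranks of 614 and 884 in replicates 1 and 4 and no summit in replicate 3. Of the 14 peaks in the list it alone was found in the 5000 highest of more than 1 replicate, beside 161 of all 1073 strong intronic peaks. The mom-1 peak outside the list was found in more than 1 replicate too. The pop-1 peak, with a pooled signal of 70.4, had a summit in replicate 4 alone, at rank 1398. The list was small and 5 of its 14 peaks were in cam-1.

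Of 49 genes of axon guidance and neural adhesion 12 were hosts, with 26 peaks or 94.8 per Mb, and 2 of the 12 had a peak found in 2 or more replicates. They included vab-1, mig-10 and unc-51, an autophagy and axon kinase gene, whose peak with a pooled signal of 76.9 had ranks of 17019 and 1425 in replicates 3 and 4. Of 52 genes of TGF-beta, insulin and kinase signalling 11 were hosts with 21 peaks, or 66.7 per Mb. The highest of these was in daf-2, with a pooled signal of 85.8 and ranks of 2366 and 1235 in replicates 1 and 4. Of 48 muscle genes 8 were hosts with 14 peaks, 70.7 per Mb, among them dys-1, the dystrophin gene, act-4, an actin gene, and lev-11, the tropomyosin gene. The highest dys-1 peak, with a pooled signal of 83.6, had ranks of 1008 and 1574 in replicates 1 and 4.

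Densities for transcription factor families, as listed here, lay on both sides of the overall 42.8 per Mb. Nuclear hormone receptor genes had 21 hosts of 268 (66.7 per Mb), with nhr-62, nhr-65 and nhr-3 highest, homeobox genes 7 of 91 (38.5 per Mb), with cog-1, ceh-21 and zag-1 highest, and other developmental transcription factors 15 of 157 (57.7 per Mb), with ast-1, ztf-6 and sma-9 highest. The homeobox list does not hold zfh-2, named above as a homeobox factor, which had 4 peaks in 16.4 kb (0.243 per kb). The homeobox density, the only one of these below 42.8 per Mb, thus leaves out a denser host. Of 14 heterochronic genes 4 were hosts (lin-42, lin-14, sea-2 and kin-20), at 63.2 per Mb. Over all genes with eligible intron 4.93% were hosts, and that share rose with the amount of intron, as given above. The lin-14 peak, with a pooled signal of 91.6, had a summit in replicate 4 alone, at rank 380. Chromatin genes had 6 hosts of 88 (40.9 per Mb), with egl-27, jmjd-2 and dpy-21 highest in the list. The chromatin list does not hold let-526 or zfp-1, both described above. Their highest peaks, with pooled signals of 139 and 86.6, were above the 75.4 of egl-27. These genes held 2 and 3 peaks in 6.19 and 3.48 kb, which the density of the list leaves out. Pharynx genes had 2 of 13 (77.7 per Mb), tbx-2 and eya-1. Around the highest peaks of ast-1, ceh-21, jmjd-2 and eya-1 the sequence was repetitive. It matched itself there at 63.2, 69.7, 84.4 and 70.2% of bases when shifted. Ion channel and transmitter receptor genes had 14 hosts of 195 at 21.2 per Mb, with lgc-46, dop-1 and lgc-51 highest. None of their 14 peaks was found in 2 or more replicates, beside 161 of all 1073 strong intronic peaks. With 14 peaks that count does not set the list apart. No intestinal gene was a host among 21, which together had 0.0315 Mb of eligible intron, again too little to hold more than a few peaks at the overall density. Lists share members, and no list was tested. The gene bed-3 itself (chromosome IV, 9916524 to 9921967) had 1646 bp of eligible intron, 0 strong intronic peaks and 0 pooled summits of any rank.

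Position within the host was close to that of weaker intronic peaks. A peak counted as in a first intron when that held for any coding transcript of the host. Of the 1073 strong intronic peaks 353 were in a first intron (32.9%, 30.1 to 35.8%), against 2332 of 7582 intronic peaks of lower pooled rank (30.8%, 29.7 to 31.8%) and 27.8% of all eligible bases. Among the 161 found in 2 or more replicates the share was 39.1% (31.5 to 47.1%). The intervals of the strong and weaker sets overlap. In the replicates' own lists the share was 33.7, 32.7 and 31.4% for strong intronic peaks in replicates 1, 3 and 4, against 29.9, 29.98 and 30.5% for the weaker ones, so it was higher in 3 of 3 replicates. The median distance to the nearest 5′ end of the host was 1896 bp (quartiles 973 and 3711 bp), against 1960 bp for the weaker peaks, and 180 strong peaks were over 5000 bp away. The median intron holding a strong peak was 1125 bp long, against 1028 bp.

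Chromosomes differed in how many strong intronic peaks they held for their intron. Chromosome III had 268 peaks, 63.7 per Mb of eligible intron, and chromosome X had 81, or 20.1 per Mb, with I, II, V and IV between them at 52.6, 51.3, 37.2 and 31.4 per Mb. The GC content of eligible intron was 31.8% on III and 31.5% on X. Weaker intronic peaks followed a like order with a narrower spread, 385 per Mb on III and 211 per Mb on X. In the replicates' own lists, X held 10.8, 12.06 and 7.71% of strong intronic peaks in replicates 1, 3 and 4, and III held 21.5, 21.1 and 23.6%, beside 16.1% and 16.8% of eligible bases. All 3 replicates thus had X below and III above its share of intron. The embryos were of pooled sex, and the dose of X in the chromatin and in the control was not analysed here.

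**Figure D4:**
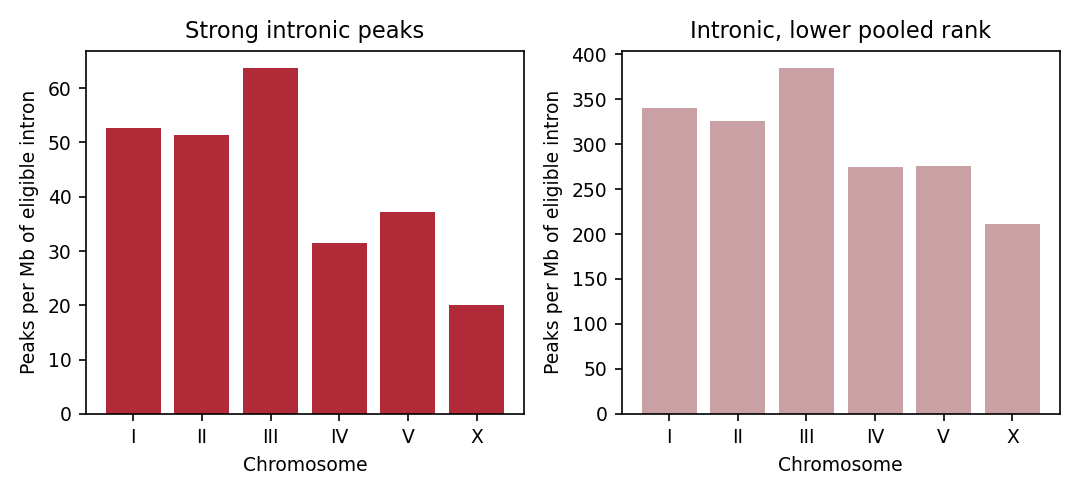
Peaks per Mb of intron that meets the location rule, by chromosome, for strong intronic peaks (left) and intronic peaks of lower pooled rank (right); the panels have separate axes. Chromosome III was highest in both, at 63.7 and 385 per Mb, and X lowest in both, at 20.1 and 211 per Mb.

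The summits of strong intronic peaks were richer in GC than introns in general and poorer than promoter summits. Median GC content of the 101 bp was 38.6% for strong intronic peaks, against 33.7% for weaker intronic peaks, 40.6% for intergenic and 42.6% for promoter peaks of the strong set, and 31.7% over eligible intron. In their own lists strong intronic peaks had medians of 36.6, 34.7 and 37.6% in replicates 1, 3 and 4, against 34.7, 32.7 and 33.7% for weaker ones. The strong ones were higher in 3 of 3 replicates. The 156 strong intronic peaks with 50% GC or more had a median signal of 71.9, and the 224 under 30% a median of 63.98. The peak in F09C8.2, one of the 18 recurrent ones, had 76.2% GC. Whether base composition changes recovery of DNA in these libraries was not tested.

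**Figure D5:**
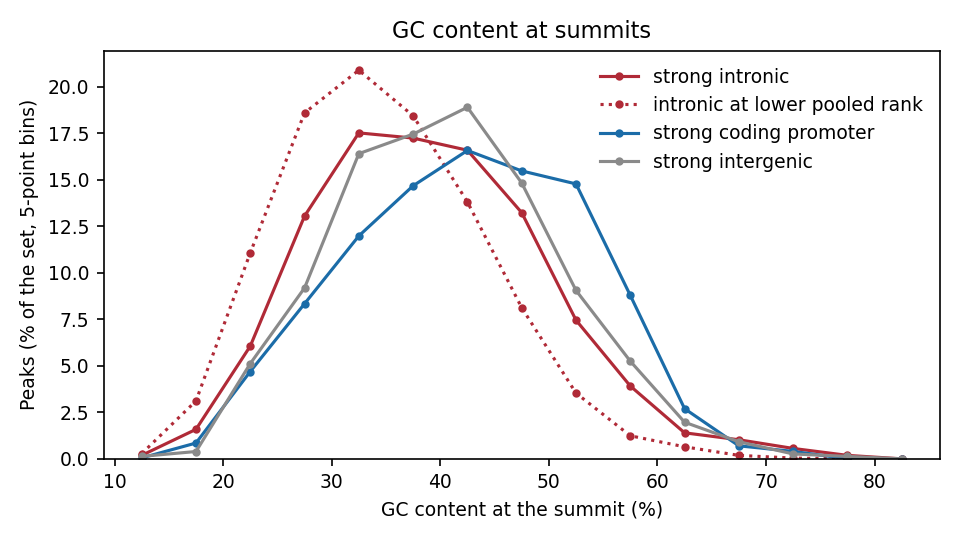
GC content of the 101 bp at the summit, in bins of 5 percentage points, against the percent of peaks of each set; solid red is strong intronic, dotted red is intronic at lower pooled rank, blue is strong coding promoter and grey is strong intergenic. The strong intronic curve, with a median of 38.6%, lies between the weaker intronic peaks at 33.7% and the promoter peaks at 42.6%.

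Words repeated exactly in the genome were about as common at strong intronic summits as at weaker ones. A 36-base word that recurs in the genome was present at 143 (13.3%), against 14.1% of weaker intronic, 13.4% of strong intergenic and 8.84% of strong promoter summits. At 3 strong intronic summits every such word was repeated, in hmr-1, ptc-1 and acr-10. Bases masked in the RefSeq sequence, which need not hold an exact repeated word, had a median share of 47.5% at strong intronic summits. The medians were 55.4% at weaker intronic, 32.2% at strong intergenic and 23.8% at strong promoter summits. Tandem structure, counted where the 301 bp around the summit matched themselves at 60% of bases or more under a shift of 5 to 100 bp, was found at 56 (5.22%), as at the usp-39 peak printed above, against 3.17% of weaker intronic, 4.72% of strong intergenic and 1.45% of strong promoter summits. Peaks in 3, 2, 1 and 0 replicates had it in 5.56, 4.20, 5.44 and 5.26% of cases. The B box-like word seen at srt-52 and Y57G11C.22 was at 33 strong intronic summits (3.08%), including 2 of the 18 recurrent ones, against 2.74% of weaker intronic, 5.34% of promoter and 24.1% of strong peaks near RNA genes.

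Of the 10 motifs, 2 had a share at strong intronic summits more than 2 times that in windows of intron, GCGCGC and GAGAGA, and both were more frequent still at strong promoter summits. Each motif was searched on both strands in 101 bp, and the share in 248044 windows of that length tiled over eligible intron is given last. GCGCGC, which overlaps itself, was at 36 strong intronic summits (3.36%), against 1.19% of weaker intronic, 3.02% of intergenic and 5.69% of promoter summits and 0.762% of windows. GAGAGA, which also overlaps itself, was at 84 (7.83%), against 4.43%, 14.8%, 12.6% and 3.78% for the same sets. GATAA, the core read by GATA factors, was at 12.4% of strong intronic summits, against 16.5% of weaker intronic, 13.5% of intergenic and 15.1% of promoter summits and 19.97% of windows. CANNTG, which includes CACCTG, was at 23.8%, against 22.8%, 30.8%, 30.005% and 25.9%. These sets differ in GC content as given above and were not matched on it. TAATTA, a core of homeodomain sites, was at 4.29% of strong intronic summits and 5.60% of windows, and CTTTGA, read by TCF factors, at 5.69% and 7.39%. TGAGTCA was at 0.652% and 0.758%, AGGTCA, a word read by nuclear receptors, at 1.58% and 2.24%, and CACCTG at 2.52% and 2.04%. A pair of TTTC words with 2 bases between them was at 2.61% and 2.86%. A match is a description of letters and not a site of binding.

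The limit of 5000 fell in a stretch of nearly equal signals. The last intronic peaks inside it were in pac-1, F19C7.8 and F36D3.1, with pooled signals of 57.10, 57.10 and 57.08. The first outside were in cdk-7, osm-12 and cle-1, with 57.06, 57.06 and 57.03. Of the 1073, 884 had a signal under 80. Most intervals were of 1 width, 456 bp in 1069 of 1073, and 190 peaks had another strong intronic peak within 2000 bp, so neighbouring peaks of 1 host are not separate observations.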

How the data were processed

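The authors' peak lists give, per peak, deposited coordinates and a summit offset, the deposited signal of their caller, and the deposited −log10 q, which was not used here. Coordinates are ce11, per the labels, and are given counted from 1, and 0 chromosomes had a peak past their end. Aligner, caller and settings: not given in the sources used here. The pooled list was called from all 3 replicates together against the 1 control alignment that every list shares, which was not analysed here, per the deposited file listing. Read depth was not analysed here, so precision rests on 26338, 29455 and 30000 peaks in replicates 1, 3 and 4 and 30000 in the pooled list.

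Peaks were located with Ensembl 115 gene models on WBcel235, counting the 5′ ends of all coding transcripts, and genes without a name took the RefSeq symbol. Eligible intron is all sequence that meets the location rule. The members and lists were chosen with earlier results of these data known. Genes named are the hosts of the 25 highest peaks, hosts of 3 or more peaks (1 of them is not reported here), hosts of the 10 peaks with the best worst replicate rank, up to 3 per gene list, bed-3 and the peaks at the limit. The tandem and B box-like counts, the 2 repeated sequences and genes singled out for extreme values were added after values were seen. No test was run. Labels call the replicates biological, and nothing more on separate cultures was used. The procedures were tested on simulated data. Python 3.11.15, pandas 2.3.3, numpy 2.4.6, scipy 1.17.1 and matplotlib 3.10.9 were used.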

Additional observations from a re-analysis of the deposited data

How the results depend on the processing

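Of 72 alternative values, 31 moved and 41 stayed within the limits used, which are 1.5 times for a count and the replicate SD or the 95% interval for other values. The 41 include counts that changed within those limits and values that a setting could not change, such as the 18 peaks found in every replicate when 1 replicate is left out. For values that moved the cause was not tested beyond the smaller or larger set that the setting keeps. With the 2500 highest pooled peaks there were 394 strong intronic peaks in 344 hosts, with 37.1% in a first intron, a median GC content of 40.6% and repeated words at 10.7%. With the 10000 highest there were 2502 in 1679 hosts, with a median GC content of 36.6%. A promoter window of 2000 bp upstream to 500 bp downstream left 802 peaks, 13 of them found in every replicate. Of these 802 peaks 25.4% were in a first intron, and their median distance from the host 5′ end was 2435.5 bp. With the window as reported, taking only the longest coding transcript left 21.8% in a first intron. The count found in every replicate was 8 with summits within 50 bp, 42 within 200 bp, 7 in the 1000 highest of each replicate and 186 in the whole lists, so it depends on the matching distance and list depth. Repeated words fell to 5.96% with 50-base words. Leaving out 1 replicate kept the peaks found in the 5000 highest of both others: 45 (without replicate 4) to 78 (without replicate 3) peaks in 45 to 78 hosts, 31.1 to 47.4% in a first intron, a median GC content of 41.6 to 43.1%, repeated words at 3.85 to 12.2% and 9 to 14 in the optimal list. The reads of the omitted replicate stay in the pooled list, so this is a stricter filter and not a new call. No paired analysis was possible because there is only 1 group. Precision is limited by 3 replicates and by peak lists without read depth.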
